A study of Mus musculus with 2 samples.

Results

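The glycolytic isoenzymes described here were 10 genes of the 43346 annotated genes in the deposited tables, taken by symbol: the hexokinases Hk1 and Hk2, the phosphofructokinases Pfkm, Pfkl and Pfkp, the aldolases Aldoa and Aldoc, the pyruvate kinase gene Pkm, and the lactate dehydrogenases Ldha and Ldhb. All 10 were found in both libraries, with 72 annotated transcripts among them. Total RNA of the neural tube, the embryonic structure that gives rise to brain and spinal cord, was sequenced in 2 libraries. The animals were B6NCrl mouse embryos, healthy and with no allele or treatment named in the labels, taken at 15.5 days. Each library was a separate pool of embryos of both sexes, 78 in replicate 1 and 62 in replicate 2, and 10 ng of RNA longer than 200 nucleotides entered each. Both libraries belong to 1 group, so no condition could be compared and no test between conditions was possible. A comparison of 2 libraries with 2 others could not have given an exact two-sided permutation p below 0.333. Since the material was tissue from pooled embryos, fewer cells of a type and less RNA per cell cannot be told apart in any value below.

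Glycolysis converts glucose to pyruvate in the cytosol, and lactate dehydrogenase interconverts pyruvate and lactate. Several of its steps can be run by related enzymes from separate genes, or by variants spliced from 1 gene, which differ in regulation and in the tissues that use them. Hexokinase, phosphofructokinase and pyruvate kinase catalyse the effectively irreversible steps. Developing neural tissue holds both dividing progenitors and differentiating neurons, and the M1 and M2 forms of pyruvate kinase, made from the same gene, are a textbook example of isoenzymes that differ between resting and dividing cells.

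The sequences that tell isoenzyme transcripts apart are shown first, for Pkm, where the choice of exon defines the enzyme. Pkm holds a pair of mutually exclusive exons of 167 bases each, 372 bases apart on chromosome 9 of GRCm38. The M1 type lies at chr9:59675029-59675195 and the M2 type at chr9:59675568-59675734, both on the plus strand and both wholly coding. Capitals mark the 64 bases at which they differ, and the other 103 bases, 61.7% of the exon, are the same. Both are read from the GENCODE M21 transcripts, 5′ to 3′.
Pkm exon of M1 type: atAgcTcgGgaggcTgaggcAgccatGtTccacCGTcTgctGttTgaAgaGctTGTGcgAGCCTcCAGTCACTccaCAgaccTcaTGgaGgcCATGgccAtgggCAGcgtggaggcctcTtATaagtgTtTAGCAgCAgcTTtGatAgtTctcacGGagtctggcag
Pkm exon of M2 type: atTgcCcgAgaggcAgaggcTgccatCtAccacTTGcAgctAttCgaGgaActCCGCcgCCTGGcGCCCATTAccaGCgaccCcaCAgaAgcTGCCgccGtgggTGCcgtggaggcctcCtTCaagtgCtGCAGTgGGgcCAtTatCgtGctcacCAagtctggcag
Each annotated transcript in the tables holds 1 of these exons: Pkm-202 the M1 type, as its exon 9, and Pkm-201 the M2 type. The coding sequence is 1593 bases long in both. Reads that cover no differing base were divided between the transcripts by the authors' model.

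The libraries differed in markers of other tissues, which bears on every gap between them reported below. All 6 neuronal markers were detected (summed 3264 and 3839 TPM), and each was higher in replicate 2, though none was 1.5-fold apart. The 7 markers of radial glia and astrocytes summed to 2045 and 2425 TPM, so the cells of the labelled tissue were represented in both libraries. The 4 epithelial markers summed to 597.6 and 7.44 TPM, the 4 thymic epithelial markers to 254.8 and 10.8 TPM, the 6 thymocyte markers to 179.2 and 0.39 TPM with Cd3g at 0 counts in replicate 2, and the 4 smooth muscle markers to 234.4 and 24.0 TPM. The 6 markers of cycling cells summed to 458.3 and 215.4 TPM, and all 6 were at least 1.5-fold higher in replicate 1, as were 7.63% of all detected genes. The 6 skeletal muscle markers summed to 144.3 and 262.0 TPM, with 5 at least 1.5-fold higher in replicate 2, as were 1.23% of all detected genes. The 4 endothelial markers, summing to 155.0 and 129.5 TPM, were all higher in replicate 1, and Pecam1 among them was past 1.5-fold (22.7 and 11.8 TPM). No marker was 1.5-fold apart for the oligodendrocyte lineage (126.7 and 129.7 TPM), microglia (108.2 and 102.0 TPM) or red cells (14867 and 12934 TPM).

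The members ranged from among the most abundant genes of the tissue down to 1 of low level. Levels are in TPM (transcript abundance relative to the library's total), which correct for transcript length and library size and so allow genes to be set side by side. All 10 members reached 1 TPM in both libraries, called detected here, against 35.8% of all genes. At least 10 TPM in both was reached by 9 members (21.5% of all genes), and at least 100 TPM by 7 (3.84% of all genes). The median member stood at 347.9 TPM, beside 16.5 TPM over all 15505 detected genes. This median and the 7 members at 100 TPM count all transcripts of Pfkp. Its protein-coding transcripts alone had 68.73 and 80.19 TPM, as described below. Together the members took 3521 TPM in replicate 1 and 3369 TPM in replicate 2.

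In order of mean level the members ran Pkm, Ldha, Aldoa, Ldhb, Pfkp, Aldoc, Hk1, Pfkl, Pfkm and Hk2. The ranges of the 2 libraries overlapped between Pkm and Ldha, between Ldha and Aldoa, and between Ldhb and Pfkp. Within each library Pkm still stood above Ldha, and Ldhb above Pfkp. The ranges of each other neighbouring pair did not overlap, with 2.55-fold between Aldoc and Hk1 and 22.3-fold between Pfkm and Hk2. The 2 libraries gave the same order except that Ldha stood above Aldoa in replicate 1 and below it in replicate 2. The place of Pfkp rests on all its transcripts. Its protein-coding transcripts alone (68.73 and 80.19 TPM) stood below those of Aldoc (249.6 and 285.5 TPM) and Hk1 (109.7 and 119.1 TPM).

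**Figure D1:**
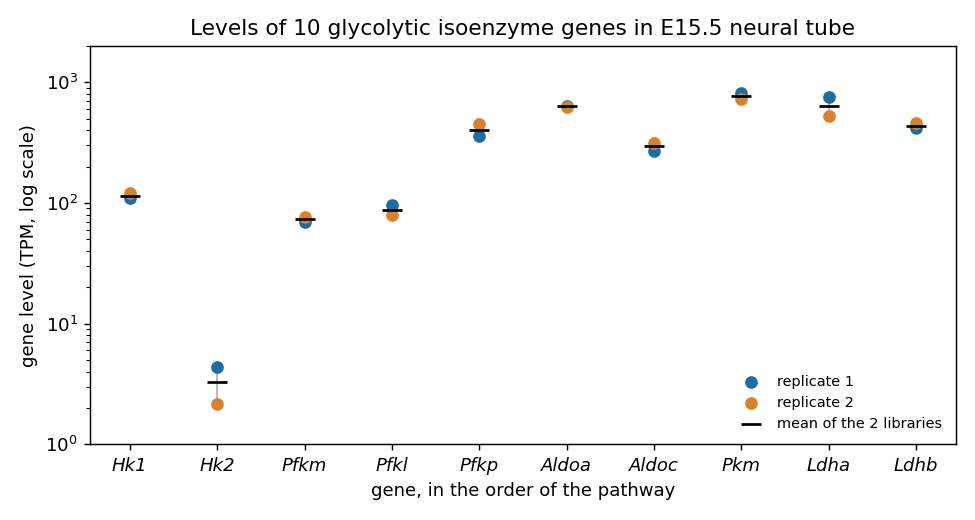
Gene level in TPM (log scale) of the 10 members in pathway order, with 1 point for each library and a black bar for the mean of the 2 libraries. Levels include all transcripts of each gene, coding or not. Hk2 lies at 4.38 and 2.16 TPM, below all other members, and Ldha shows a wider gap between the libraries (748.3 and 521.9 TPM) than Aldoa (640.6 and 624.7 TPM).

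Hexokinase traps glucose in the cell by phosphorylation. Hk1 (ENSMUSG00000037012.14, chr10:62268855-62379908, minus strand), the form most widely expressed in brain, measured 110.1 TPM in replicate 1 and 120.2 TPM in replicate 2 (115.2 ± 7.13, SD, n = 2). Hk2 (ENSMUSG00000000628.6, chr6:82725025-82774454, minus strand), best known from muscle, fat and proliferating cells, measured 4.38 and 2.16 TPM (3.27 ± 1.57, n = 2). Hk1 was therefore above Hk2 by 25.1-fold in replicate 1 and 55.7-fold in replicate 2, and it made up 96.2% and 98.2% of their summed TPM. On expected counts, the authors' estimates of the reads per gene before any correction for length, the Hk1 share was 97.6% (exact Clopper-Pearson 95% interval 97.2 to 97.8) and 98.5% (98.3 to 98.7). These intervals, here and below, cover counting error only. Of the other hexokinases, Hk3 had 1.05 and 0.70 TPM and Hkdc1 1.07 and 0.49 TPM, below Hk2 in both libraries.

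The annotated start of the hexokinase coding sequence is shown because the first coding exon of Hk1-202 and Hk2-201 encodes the N-terminal stretch by which these enzymes bind mitochondria, and Hk1-201 begins differently. The starts are given on the minus strand of GRCm38, read from the M21 transcripts, with the start codon in capitals. They lie at chr10:62340013-62340075 for Hk1-202, at chr10:62358336-62358362 and chr10:62353058-62353105 for Hk1-201, and at chr6:82773918-82773980 for Hk2-201.
Hk1-202 coding exon 1: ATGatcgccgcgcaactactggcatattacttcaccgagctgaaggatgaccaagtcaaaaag
Hk1-201 coding exon 1: ATGggacagaactgccagcgaggacag
Hk1-201 coding exon 2: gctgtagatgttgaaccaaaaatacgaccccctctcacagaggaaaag
Hk2-201 coding exon 1: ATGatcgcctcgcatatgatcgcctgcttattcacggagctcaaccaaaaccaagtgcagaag
Of the 63 bases of the first coding exon, 43 were identical between Hk1-202 and Hk2-201 (68.3%), close to the 72.0% identity of their whole coding sequences. Hk1-201 replaces those 63 bases with 75 bases in 2 exons of 27 and 48 bases, and its next coding exon is the one that follows in Hk1-202.

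The Hk1-202 transcript carried 83.18 and 82.32 TPM, 75.5% and 68.5% of the gene. Hk1-201 carried 26.05 and 36.47 TPM, 23.7% and 30.3% of the gene. The level of Hk1-202 was thus nearly equal in the libraries, and the higher gene level of replicate 2 lay in Hk1-201. The intervals deposited by the authors for Hk1-201 were 18.4 to 30.1 TPM in replicate 1 and 29.9 to 40.3 TPM in replicate 2, which overlap narrowly.

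Hk2 rested on 246 expected counts in replicate 1 and 186 in replicate 2. Its full-length coding transcript, Hk2-201, had 1.81 and 1.21 TPM. A 594-base non-coding transcript, Hk2-202, had 2.57 and 0.94 TPM from 28.2 and 12.4 expected counts, and so held 58.6% and 43.8% of the gene's TPM on few reads. More than 40% of the gene-level TPM of Hk2 in each library therefore came from this short transcript, whose correction for length is large.

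Phosphofructokinase, the main control point of glycolysis, is a tetramer of M (muscle), L (liver) and P (platelet) subunits that can mix. Pfkp (ENSMUSG00000021196.9, chr13:6579768-6648777, minus strand) measured 356.5 and 448.0 TPM (402.2 ± 64.7, n = 2). Pfkl (ENSMUSG00000020277.9, chr10:77986947-78010083, minus strand) measured 95.7 and 80.1 TPM (87.9 ± 11.1). Pfkm (ENSMUSG00000033065.9, chr15:98092589-98132451, plus strand) measured 69.7 and 76.3 TPM (73.0 ± 4.68). Pfkp led in both libraries, 3.72-fold and 5.60-fold above Pfkl, and held 68.3% and 74.1% of the family's TPM. The Pfkl share was 18.3% and 13.2%, and that of Pfkm 13.3% and 12.6%.

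The lead of Pfkp rested on transcripts annotated as retaining an intron, which are not annotated to encode the enzyme. These 7 transcripts held 80.6% of the gene's TPM in replicate 1 and 82.1% of it in replicate 2. Of its expected counts they held 66.0% and 67.7%. Among 8908 protein-coding genes with 10 TPM or above in each library, retained-intron transcripts reached at least 50% of gene TPM in both libraries in 2.31%, a limit chosen after the values were seen. The Pfkp share was higher than that of 99.7% of these genes, of which 55.6% had a retained-intron share of 0. No other member came near it: the highest retained-intron share elsewhere was 3.75% of Pfkl in replicate 1.

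The 702-base Pfkp-210 alone held 161.8 and 212.3 TPM, 45.4% and 47.4% of the gene. It has 3 exons, the last of which runs 444 bases beyond the end of exon 15 of the coding transcript Pfkp-201 (chr13:6598739-6598826) into an intron of 5485 bases. The crossing point is shown for this reason, with the last 40 bases of the exon in lower case and the first 60 bases of the retained intron in capitals, at chr13:6598679-6598778 on the minus strand of GRCm38, as read from the M21 transcript.
Pfkp-210 exon end and start of the retained intron: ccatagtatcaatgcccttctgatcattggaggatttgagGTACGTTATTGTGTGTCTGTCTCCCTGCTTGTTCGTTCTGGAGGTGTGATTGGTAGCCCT
The coding Pfkp-201, with 22 exons, had 58.02 and 70.76 TPM, below Pfkm in both libraries. Of the other retained-intron transcripts, Pfkp-211 had 51.83 and 69.32 TPM, Pfkp-212 31.00 and 35.28 TPM, and Pfkp-206 27.42 and 32.88 TPM. Each of the 5 named Pfkp transcripts was higher in replicate 2. Pitrm1, on the opposite strand, overlaps Pfkp and had 33.7 and 21.4 TPM. Likewise on the opposite strand, Senp1 (18.4 and 13.7 TPM) overlaps Pfkm, and Fam57b (36.9 and 41.5 TPM) overlaps Aldoa. Whether the counting kept strands apart is not given in the sources, so reads of these overlaps cannot be told apart.

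**Figure D2:**
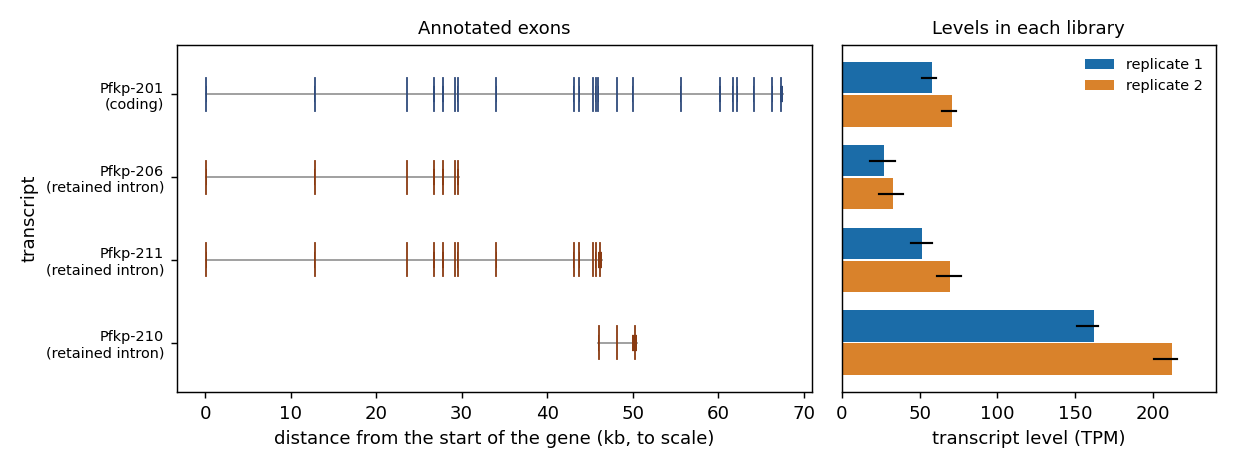
Left, exons of 4 Pfkp transcripts to scale, in kilobases from the start of the gene, with the coding transcript in blue and retained-intron transcripts in brown. Right, their TPM in each library, with black lines for the intervals deposited by the authors. The 702-base Pfkp-210 has the longest bars, at 161.8 and 212.3 TPM, against 58.02 and 70.76 TPM for the coding Pfkp-201.

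On protein-coding transcripts alone the phosphofructokinases stood close together. Pfkp then had 68.73 and 80.19 TPM, Pfkl 92.15 and 77.67 TPM, and Pfkm 69.66 and 76.28 TPM. The mean coding shares were 32.0 ± 3.14% for Pfkp, 36.6 ± 4.81% for Pfkl and 31.4 ± 1.67% for Pfkm (SD, n = 2). Pfkl was highest in replicate 1 and Pfkp in replicate 2. Pfkl stood above Pfkm in both libraries, while the values of Pfkp overlapped those of each of the others. Expected counts of coding transcripts gave mean shares of 43.1% for Pfkl, 28.9% for Pfkp and 28.1% for Pfkm, an alternative chosen after seeing the data.

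The coding transcripts of Pfkm and Pfkl had simpler make-up. Pfkm was divided between Pfkm-201 (37.34 and 39.35 TPM) and Pfkm-202 (32.32 and 36.93 TPM), which have the same annotated coding sequence and different non-coding first exons. Pfkl-201 held 96.3% and 97.0% of Pfkl. The coding sequences of the 3 genes were 68.2% to 71.1% identical to each other, and no annotated transcript of another gene matched any of them over 200 bases at 90% identity or more.

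**Figure D3:**
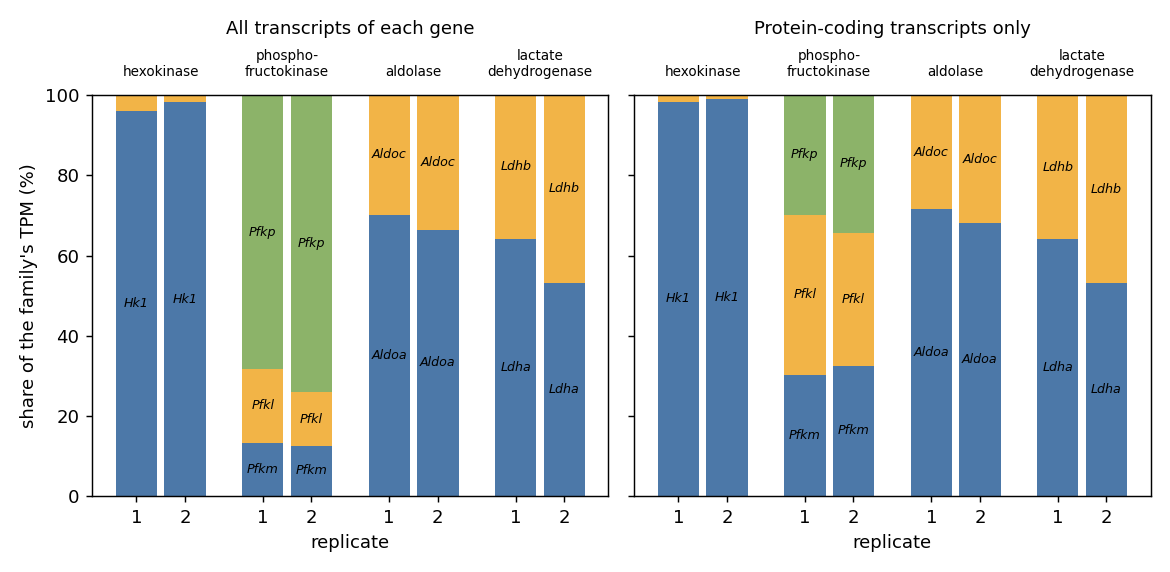
Share of each family's TPM held by each member in replicates 1 and 2, from all transcripts (left) and from protein-coding transcripts only (right), with Hk2 as the thin unlabelled segment above Hk1. The phosphofructokinase bars change from a Pfkp share of 68.3% and 74.1% on the left to 29.8% and 34.2% on the right, while the aldolase and lactate dehydrogenase bars differ little between the panels.

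Aldolase splits fructose bisphosphate into triose phosphates. Aldoa (ENSMUSG00000030695.9, chr7:126795234-126800751, minus strand), the form of muscle and most other tissues, measured 640.6 and 624.7 TPM (632.6 ± 11.2, n = 2), the closest agreement between the libraries of any member. Aldoc (ENSMUSG00000017390.11, chr11:78322968-78327781, plus strand), the brain form, known from astrocytes and Purkinje cells, measured 271.9 and 315.2 TPM (293.5 ± 30.6). Aldoa was 2.36-fold and 1.98-fold above Aldoc, a share of 70.2% and 66.5%. Counting error was smaller than this gap between the libraries: the Aldoa share of counts was 66.8% (66.2 to 67.3) and 63.0% (62.5 to 63.5).

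Most of both aldolase genes came from 1 coding transcript. Aldoa-201 held 569.2 and 560.8 TPM (88.9% and 89.8%), and Aldoa-203, which has the same coding sequence behind another non-coding first exon, 43.80 and 35.77 TPM. Aldoc-202 held 222.5 and 254.8 TPM (81.8% and 80.8%), Aldoc-201 27.13 and 30.74 TPM, and the 706-base non-coding Aldoc-206 19.63 and 27.02 TPM.

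Pyruvate kinase makes pyruvate and ATP. Pkm (ENSMUSG00000032294.12, chr9:59656368-59679375, plus strand) was the highest member in both libraries, at 807.0 and 723.4 TPM (765.2 ± 59.1, n = 2), and stood at place 130 among all genes by mean TPM. Pklr, the pyruvate kinase gene of liver and red cells, had 1.14 and 0.06 TPM. The total of Pkm was 1.12-fold higher in replicate 1, but its exon types moved in opposite directions.

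The M1-type Pkm-202 had 489.1 TPM in replicate 1 and 573.4 TPM in replicate 2. The M2-type Pkm-201 had 317.8 and 150.0 TPM. The M1 type, typical of muscle and mature brain, was thus the more abundant in both libraries, 1.54-fold and 3.82-fold above the M2 type, which is known from embryonic and proliferating cells. The M2 type was 2.12-fold higher in replicate 1, a log2 ratio of 1.08, and the M1 type 1.17-fold higher in replicate 2. The M2 share of Pkm was 39.4% in replicate 1 (38.9 to 39.9 on counts) and 20.7% in replicate 2 (20.4 to 21.1), with a mean of 30.1 ± 13.2% (SD, n = 2). These intervals on counts treat every Pkm read as told apart by exon type. They leave out the error of dividing reads that cover no differing base, and so fall short of the full counting error of this share. The deposited intervals did not overlap between libraries for either transcript: 298.9 to 321.5 and 138.9 to 154.6 TPM for the M2 type, and 464.0 to 487.5 and 551.8 to 570.3 TPM for the M1 type. These bounds belong to the authors' posterior mean, which is why the TPM itself can lie just outside them.

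This change of 18.65 percentage points was wide for the tissue. Among 6810 protein-coding genes with 2 or more transcripts and at least 10 TPM in each library, the median change of the main transcript's share was 2.59 points, and 3.26% of genes changed by 15 points or more, a limit likewise chosen with the values known. Among the other members at that level the next widest change was 7.05 points, for Hk1, and Pfkm, Pfkl, Pfkp, Aldoa, Aldoc, Ldha and Ldhb changed by 0.10 to 2.01 points.

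The list of splicing factors that act on the Pkm exons was read beside this. Of its 7 genes all were detected, 2 were at least 1.5-fold higher in replicate 1 (7.63% of detected genes were) and none was that much higher in replicate 2 (1.23%). Ptbp1, a repressor of the M1-type exon, measured 99.4 and 45.6 TPM, a log2 ratio of 1.11, and its paralogue Ptbp3 22.2 and 14.0 TPM, a log2 ratio of 0.63. Ptbp2, the neuronal paralogue, measured 110.7 and 127.5 TPM. The heterogeneous ribonucleoproteins Hnrnpa1 (476.9 and 457.7 TPM) and Hnrnpa2b1 (661.3 and 547.7 TPM), which also repress that exon, and Srsf3 (487.3 and 438.8 TPM), a promoter of M2 inclusion, were less than 1.5-fold apart. The part of these factors in the M2 share was not tested.

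**Figure D4:**
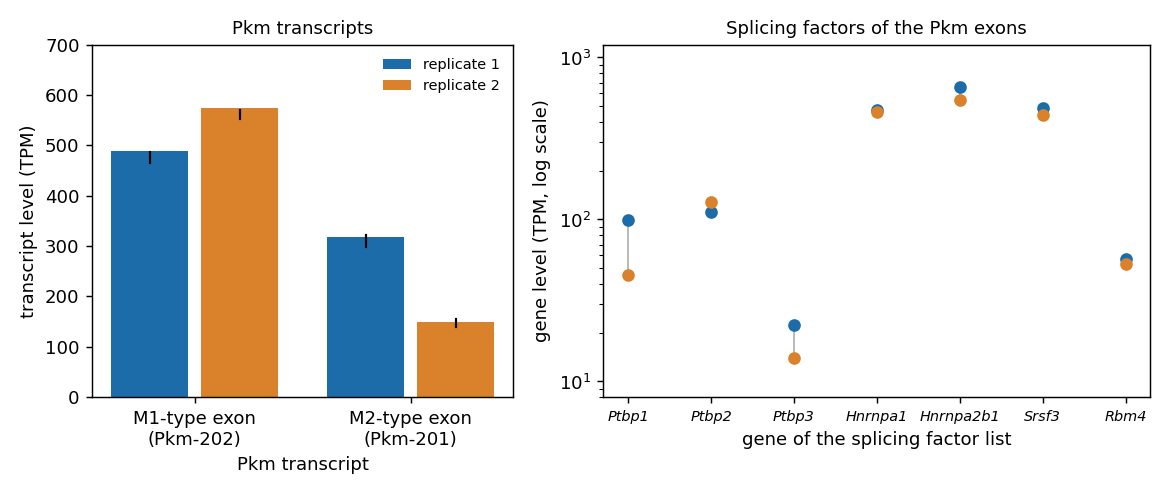
Left, TPM of the M1-type and M2-type Pkm transcripts in each library, with black lines for the intervals deposited by the authors. Right, TPM (log scale) of 7 splicing factor genes in each library: the M2-type transcript (317.8 and 150.0 TPM) and Ptbp1 (99.4 and 45.6 TPM) are both higher in replicate 1, while Ptbp2 is slightly higher in replicate 2.

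Lactate dehydrogenase is a tetramer of A and B subunits, the A form being typical of muscle and the B form of heart. Ldha (ENSMUSG00000063229.10, chr7:46841475-46855627, plus strand) measured 748.3 and 521.9 TPM (635.1 ± 160.1, n = 2). Ldhb (ENSMUSG00000030246.7, chr6:142490249-142507957, minus strand) measured 416.9 and 457.4 TPM (437.2 ± 28.6). Ldha exceeded Ldhb in both libraries, by 1.79-fold in replicate 1 and 1.14-fold in replicate 2. Its share of the pair was 64.2% and 53.3%, and on counts 68.7% (68.2 to 69.2) and 58.2% (57.7 to 58.8).

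Both genes were nearly all 1 coding transcript, Ldha-202 at 97.3% and 96.9% and Ldhb-201 at 99.7% and 99.6%. Ldha has 17 near-identical copies among other annotated genes (at least 200 bases at 90% identity or more), of which 12 are in the tables. Together these held 2.55 and 1.75 TPM, and their expected counts were 0.22% and 0.21% of the Ldha count. Ldhb has 1 such copy, Gm5514, with 3.66 and 3.73 TPM. With the copies of both genes added, the mean Ldha share was 58.6%, against 58.8% without them. Pkm has 6 such copies, of which 4 were quantified, with 0.04 and 0.14 TPM together. Aldoa has 5, of which 3 were quantified, with 0.12 and 0.07 TPM together. The testis form Ldhc had 0.18 and 0.09 TPM, and Ldhal6b had no counts in either library.

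Between the libraries, the members as a whole did not lean to either side. Higher values were found for 5 members in replicate 1 and for the other 5 in replicate 2, and the median log2 ratio of replicate 1 to replicate 2, after adding 1 TPM, was -0.045 for the members and 0.011 for all detected genes. Only Hk2 was at least 1.5-fold apart, with a log2 ratio of 0.77 in favour of replicate 1, against 8.86% of detected genes in either direction. On CPM, the count relative to the library's total without correction for length, the log2 ratio of Hk2 was 0.63 with edgeR's TMM scaling and 0.62 with DESeq2's size factors. With 1 CPM added to each value it was 0.53 and 0.52, short of 1.5-fold. On coding transcripts alone no member was 1.5-fold apart. Ldha followed at 1.43-fold, a log2 ratio of 0.52, and Pfkp at 1.26-fold in the other direction. Among the 1665 genes at 100 TPM or more in both libraries, 1.02% were 1.5-fold apart. Ldha, Hk2, Pfkl, Aldoa, Pklr and the M2-type Pkm transcript were higher in replicate 1. For Aldoa the log2 ratio was only 0.036, and -0.0058 with DESeq2's size factors. Also higher in replicate 1 were all markers of epithelium, thymus, smooth muscle, cycling cells, endothelium and red cells. Hk1, Pfkm, Pfkp, Aldoc, Ldhb and the M1-type Pkm transcript were higher in replicate 2, as were the 6 neuronal and 6 skeletal muscle markers. Markers of radial glia and astrocytes, the oligodendrocyte lineage and microglia were divided between the libraries. The part of these cells in those values was not tested.

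The enzymes of the other steps were also abundant. Of 11 further glycolytic enzymes 9 were detected, and none was 1.5-fold apart between the libraries after adding 1 TPM. Without that addition Pgam2 (18.0 and 11.8 TPM) was 1.53-fold higher in replicate 1. Gapdh led at 1338 ± 76.1 TPM, followed by Eno1 at 978.7 ± 19.3, Pgam1 at 436.8 ± 22.0 and Tpi1 at 419.2 ± 39.3 TPM (SD, n = 2). The tissue-restricted forms were low: muscle enolase Eno3 had 12.4 ± 3.08 TPM, the sperm enzyme Gapdhs 0.73 ± 0.18 TPM, and the testis gene Pgk2 had no counts. The neuronal enolase Eno2 measured 159.4 and 181.9 TPM.

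Summed over the genes of each step, transcripts were fewest at glucose phosphorylation (123.2 ± 5.32 TPM over 5 hexokinase genes) and most at glyceraldehyde phosphate dehydrogenase (1339 ± 75.9 TPM over 2 genes). Phosphofructokinase summed to 563.1 ± 58.3, aldolase to 929.9 ± 14.3, enolase to 1162 ± 0.28, pyruvate kinase to 765.8 ± 59.9 and lactate dehydrogenase to 1072 ± 132 TPM. The spread between libraries was widest, in TPM, at lactate dehydrogenase, where replicate 1 had 1165 and replicate 2 979.4 TPM. The phosphofructokinase sum includes the retained-intron transcripts of Pfkp.

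**Figure D5:**
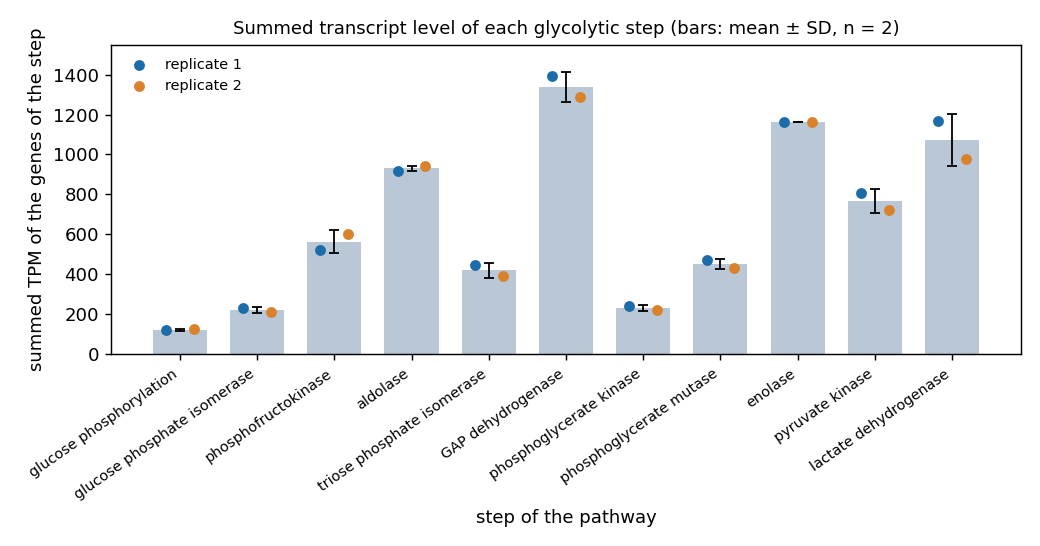
Summed TPM of the genes of each of 11 glycolytic steps, in pathway order, as mean ± SD of the 2 libraries (bars) with each library as a point. The glucose phosphorylation bar is the lowest at 123.2 TPM and the glyceraldehyde phosphate (GAP) dehydrogenase bar the highest at 1339 TPM.

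Genes that feed or control the pathway were mostly of lower level. Of 8 glucose and lactate transporter genes 6 were detected, led by the glucose transporters Slc2a1 (80.6 and 67.9 TPM) and Slc2a3, the neuronal form (39.3 and 41.4 TPM). The lactate transporter Slc16a1 (13.8 and 8.63 TPM) and the insulin-responsive Slc2a4 (7.01 and 3.62 TPM) were the 2 that stood at least 1.5-fold higher in replicate 1 (7.63% of detected genes did), and none was that much higher in replicate 2 (1.23%). Slc16a3 measured 12.6 and 9.24 TPM, and the liver transporter Slc2a2 0.09 and 0.08 TPM. All 5 genes of the list of PFKFB enzymes, which set the phosphofructokinase activator fructose 2,6-bisphosphate, and Tigar were detected, from Pfkfb3 at 22.7 ± 1.82 to Tigar at 3.75 ± 0.62 TPM, and none was 1.5-fold apart.

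Of 9 genes for mitochondrial pyruvate uptake, pyruvate dehydrogenase and its kinases 8 were detected and none was 1.5-fold apart. They ranged from the pyruvate carrier subunit Mpc1 at 346.6 ± 45.1 TPM and Pdhb at 224.0 ± 2.16 TPM to the kinases Pdk1 at 18.2 ± 4.61 and Pdk4 at 0.80 ± 0.13 TPM. All 6 transcription factors known to drive glycolytic genes were detected and none was 1.5-fold apart: Myc had 75.0 and 53.6 TPM, Hif1a 61.2 and 60.9 TPM, and Epas1, the lowest, 4.99 and 3.69 TPM. Of 6 gluconeogenic genes 2 were detected, G6pc3 at 33.9 ± 0.86 and Pck2 at 12.6 ± 0.93 TPM. The fructose bisphosphatases Fbp1 (11.6 and 0.24 TPM) and Fbp2 (11.6 and 0.77 TPM) had most of their counts in replicate 1, and G6pc had none in either library.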

How the data were processed

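The authors' tables are on build mm10 with GENCODE M4 and come from transcriptome alignments, per the deposited notes. No aligner or quantifier, and no strand setting, is given in the sources used. The deposited expected counts are estimated reads per gene or transcript, per the file headers. TPM as deposited by the authors is scaled to 1 total over all entries, spike-ins included. The deposited transcript tables also give the percent of gene TPM per transcript, and interval bounds of the posterior mean TPM, a score per the file headers whose level is not stated there. The total over genes was 34678043 expected counts for replicate 1 and 41355355 for replicate 2. Entries outside annotated genes took 2.12% and 2.28% of counts, and 5.00% and 5.43% of TPM, and were left out.

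Symbols, transcript types, exons, coordinates and sequences came from GENCODE M21 (GRCm38, which is the mm10 assembly). Identifiers were matched without version, and 42462 of 43346 genes had a symbol. Of the 72 member transcripts, 66 had the same length in M21. The type of each transcript is that of M21. The deposited Pkm-202 and Pfkp-212 differ in length from M21, and no protein sequence was used here.

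Detection meant 1 TPM or above in each library, and 1.5-fold was read on log2((TPM + 1)) of replicate 1 minus replicate 2. That scale understates the change of low genes. Shares have exact Clopper-Pearson 95% intervals on expected counts rounded to whole numbers. The replicates are biological, per the labels. Near-identical copies were sought with blastn 2.17.0. Alternatives were posterior mean TPM, expected counts, coding transcripts alone, all annotated isoenzymes, other limits and pseudocounts, each library alone, and CPM scaled by edgeR 4.0.16 (TMM) or by DESeq2 1.42.0, in R 4.3.3, with 1 CPM added or nothing. The rest ran in Python 3.11.15 with pandas 2.3.3 and scipy 1.17.1. Fold calls and intervals were tested on simulated data.

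The members and the 24 lists (131 genes) were chosen with earlier results of these data known. The genes named are the members, other isoenzymes of their families (some are not reported here), and of each list the 4 highest, the 3 lowest and those 1.5-fold apart, or some of these. Transcripts with at least 5% of gene TPM are named. Eno2, Pgam2, Slc16a3, Pdk1, Pck2, Fbp1 and Fbp2 were named after their values were seen where they fall outside that rule. With 1 group, no p-value was computed.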

Additional observations from a re-analysis of the deposited data

How the results depend on the processing

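The phosphofructokinase shares depended most on the processing. With expected counts in place of TPM, the mean shares of Pfkp, Pfkl and Pfkm were 54.9%, 27.4% and 17.7%, in place of 71.2%, 15.8% and 13.0%. With protein-coding transcripts only they were 32.0%, 36.6% and 31.4%, and with expected counts of these transcripts 28.9%, 43.1% and 28.1%, so that Pfkl and no longer Pfkp had the highest mean share. The Hk1 share of 97.2% was 98.7% with coding transcripts only and 93.4% of all annotated hexokinases, and the Aldoa share of 68.3% was 64.9% on expected counts. Ldha, Hk1 and Aldoa kept the larger share of their pairs, and the M1 type that of Pkm, under every alternative computed for them, each library alone included. The shares from a single library ranged from 96.2 to 98.2% for Hk1, 12.6 to 13.3% for Pfkm, 13.2 to 18.3% for Pfkl, 68.3 to 74.1% for Pfkp, 66.5 to 70.2% for Aldoa, 53.3 to 64.2% for Ldha and 20.7 to 39.4% for the M2 type of Pkm, and 10 members were detected in each. The number of members 1.5-fold apart, 1 by TPM, was 0 on CPM scaled by edgeR's TMM or by DESeq2's size factors with 1 CPM added, and 1 with nothing added, an alternative chosen after seeing the data. It was 0 among genes at 10 TPM or more in both libraries, since Hk2 was not counted. It was also 0 on coding transcripts, where Hk2 had 1.81 and 1.21 TPM and fell short of 1.5-fold. The number could not be computed without a replicate. The log2 ratio of Aldoa, 0.036 by TPM, was -0.0058 with DESeq2's size factors, with or without the added CPM. No paired analysis was possible because the libraries form 1 group. Depth limits transcripts with few counts, such as those of Hk2. The intervals of the shares on counts did not overlap between the pools for any member with an isoenzyme here except Pfkm.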
